A study of Mus musculus with 2 samples.

Results

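The genes Gapdhs, Pgk2, Ldhc, Pdha2, Cyct and Slc25a31 encode forms of energy-producing proteins made mainly in male germ cells. For these 6 of 21900 protein-coding genes, methylated DNA was read in every listed window of 100 bp that overlapped the gene or 1 kb on either side of it. This gave 127 of the 2537435 windows in the deposited table. The study captured methylated DNA of mouse testis with the methyl-CpG binding domain of MBD2 and sequenced it, to ask how methylation differs without Kaiso. Kaiso, the product of Zbtb33, recognises methylated CpGs through its zinc fingers. There was 1 library from a wildtype testis and 1 from a Kaiso KO testis, both of the C57BL/6 strain. The labels describe the knockout male as sterile and from generation 3. Ages, the number of animals behind each library and the deleted part of the allele were not given in the sources used here. The free-text description of the knockout sample names both wildtype and knockout mice, so its grouping rests on the genotype label.

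The libraries held 87710791 wildtype and 98549116 knockout reads. Ratios are knockout over wildtype after scaling to these totals, and are given on the log2 scale with an exact Clopper-Pearson 95% interval that covers counting error only. Reads span several windows, so summed window counts were divided by 4 to approximate fragments. The table holds only windows with an unadjusted p under 0.05, and a window outside it was not shown to be unchanged. Every listed window therefore had to differ, and ratios in it are pushed away from 1. With 1 library per genotype there is no replicate check, and no test between genotypes was possible. A region is called higher or lower with at least 20 fragments, at least a 2-fold ratio and an interval that excludes no change. Zbtb33 itself, with 1 kb on each side, had 303 wildtype and 83 knockout counts in 16 windows (log2 -2.04, -2.81 to -1.32). Among all gene regions 5.63% were called lower. Captured DNA is no measure of Zbtb33 RNA and the deleted part was not given, so this is at most a weak check of the label.

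Sperm and the meiotic and post-meiotic cells that precede them run glycolysis and mitochondrial respiration partly with their own enzymes. Pgk2 and Pdha2 are intronless copies of the X-linked genes Pgk1 and Pdha1, and serve germ cells while the X chromosome is silenced in meiosis. Cyct, Ldhc, Gapdhs and Slc25a31 likewise have relatives that work in other tissues. Genes of this kind are often methylated around their starts in somatic cells and unmethylated in germ cells.

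The 250 bases before the start of 4 of the genes are shown first, because the results compare the DNA captured around the starts and MBD2 captures DNA through its methylated CpGs. CpGs are in capitals, and each sequence runs 5′ to 3′ on the strand of the gene, from RefSeq (GRCm38.p6). Slc25a31 was chosen as the richest in CpGs, Cyct for the largest ratio, Ldhc for its low capture and Gapdhs because 1 window within 1 kb of its start was listed.
Slc25a31, chr3:40708621-40708870, plus strand: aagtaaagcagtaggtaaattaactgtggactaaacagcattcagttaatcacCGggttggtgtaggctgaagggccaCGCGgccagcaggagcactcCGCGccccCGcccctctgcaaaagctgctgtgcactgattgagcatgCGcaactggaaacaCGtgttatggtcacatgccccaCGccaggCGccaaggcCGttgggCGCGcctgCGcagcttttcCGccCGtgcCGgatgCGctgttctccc
Cyct, chr2:76360454-76360703, minus strand: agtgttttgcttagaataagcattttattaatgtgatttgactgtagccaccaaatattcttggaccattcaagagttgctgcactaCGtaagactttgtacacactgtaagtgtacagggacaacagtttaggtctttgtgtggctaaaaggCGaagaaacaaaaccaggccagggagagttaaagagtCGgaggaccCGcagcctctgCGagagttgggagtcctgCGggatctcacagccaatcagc
Ldhc, chr7:46861013-46861262, plus strand: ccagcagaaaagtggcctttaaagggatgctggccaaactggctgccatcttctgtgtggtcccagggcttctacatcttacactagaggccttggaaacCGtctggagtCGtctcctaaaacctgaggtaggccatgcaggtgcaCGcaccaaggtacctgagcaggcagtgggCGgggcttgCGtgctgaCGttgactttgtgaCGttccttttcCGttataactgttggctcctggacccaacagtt
Gapdhs, chr7:30743682-30743931, minus strand: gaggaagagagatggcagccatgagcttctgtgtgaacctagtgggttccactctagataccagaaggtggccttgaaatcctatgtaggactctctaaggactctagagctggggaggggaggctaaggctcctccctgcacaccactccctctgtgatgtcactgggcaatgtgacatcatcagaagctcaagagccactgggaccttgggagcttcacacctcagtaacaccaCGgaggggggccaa

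Slc25a31 held 18 CpGs in these 250 bases, Ldhc 8, Cyct 6 and Gapdhs 1, against a median of 6 (quartiles 2 and 16) over 32851 promoters of the same table. Pdha2 held 4 and Pgk2 held 3. The 6 promoters thus ranged from CpG-poor to CpG-rich. Motifs were searched on both strands from 250 bases before to 50 after the start. CGCG, which Kaiso binds when methylated, was found 3 times in Slc25a31 and in none of the other 5, and 38.0% of all promoters held it. TCCTGCNA, a Kaiso site without a CpG, was found in none of the 6 (4.96% of all). The cAMP response element TGACGTCA was also found in none (1.79% of all). Its single arm TGACG, which lies within the full element, was found 61 and 47 bases upstream of the Ldhc start, and once in Gapdhs 38 bases past the start (20.8% of all).

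Around the starts of 5 of the 6 genes, far more methylated DNA was captured from the knockout than from the wildtype testis. Within 1 kb of the most upstream annotated start, 5 of the 6 genes had at least 20 fragments, and each of the 5 was called higher in the knockout library. Among all protein-coding start regions with that minimum, 51.9% of 5609 were called higher, and 13.7% lower, so a higher start was common in these libraries. The 5 log2 ratios ranged from 2.37 to 3.96 with a median of 2.42, against a median of 1.16 over all 5609. Cyct had the highest ratio, followed by Pdha2, Pgk2, Ldhc and Slc25a31. Neighbours in this order had overlapping intervals, while those of Cyct and Slc25a31 did not overlap.

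**Figure D1:**
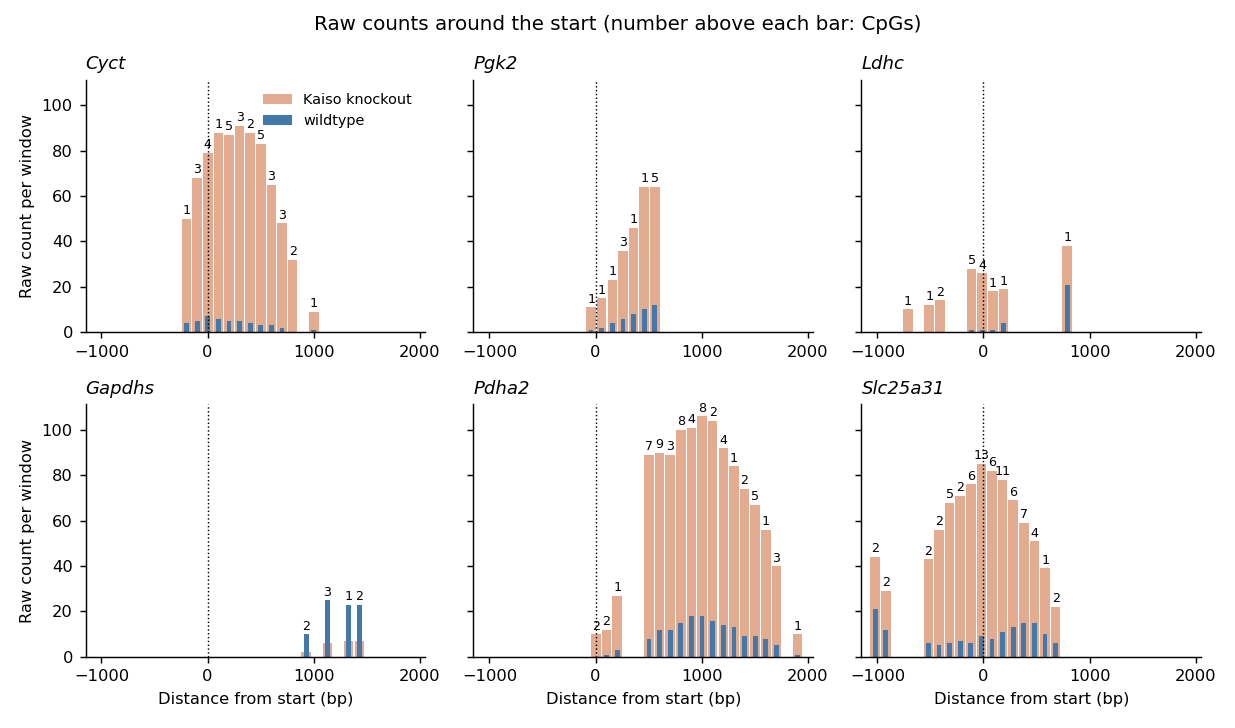
Raw read counts (y axis) of listed 100 bp windows by distance of the window centre from the start in bp (x axis), with wide bars for the knockout library, narrow bars for the wildtype library and the number of CpGs above each bar. Around the starts of Cyct, Pdha2 and Slc25a31 the knockout bars reach 91, 106 and 85 counts and the wildtype bars beside them stay at 21 or fewer.

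Gapdhs, the sperm form of glyceraldehyde-3-phosphate dehydrogenase, which is anchored in the flagellum, stood apart from the other 5. It lies on chromosome 7 from 30729779 to 30744791, and its span overlaps the gene Sbsn. The most upstream start in the sequence table, 30743681 on the minus strand, lies inside this span. Of 19 listed windows, 16 were lower and 3 higher in the knockout library. The sums were 736 wildtype and 567 knockout counts (log2 -0.54, -0.87 to -0.22), short of a call. Within 1 kb of its start there was 1 listed window, with 10 wildtype and 2 knockout counts, too few for a ratio. With 2 kb on each side of the start the log2 ratio was -2.05 (-3.73 to -0.64), a lower call on 25.75 fragments. The listed windows behind this call were all centred 930 to 1430 bp inside the gene. Just beyond the margin, upstream, the window from 30745701 to 30745800 was higher, with 65 wildtype and 96 knockout counts (log2 0.39, -0.57 to 1.40). It was not part of the call, which depends on where the margin falls. The share of all genes called lower at that margin is not given here. Among all listed windows, 56.3% with 1 CpG, 43.8% with 2 and 17.0% with 3 to 4 were at least 2-fold lower.

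The lower windows of Gapdhs held at most 3 CpGs each. The longest run of them, from 30740801 to 30741200, had 141 wildtype and 56 knockout counts (log2 -1.50, -2.51 to -0.57). A further annotated start of the gene lies just upstream of a pair of windows from 30739201 to 30739400, which hold 7 CpGs between them. These were captured in both libraries, with 110 wildtype and 211 knockout counts (log2 0.77, 0.08 to 1.49). Methylated DNA was thus read at this inner start in the wildtype testis too, at 6.04 and 6.50 RPKM (reads scaled to window length and library size).

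Pgk2, the testis phosphoglycerate kinase, had listed windows only over and just inside its start. It lies on chromosome 17 from 40207018 to 40208609 on the minus strand. Its 7 listed windows formed 1 unbroken run from 40208001 to 40208700, with 43 wildtype and 259 knockout counts (log2 2.42, 1.48 to 3.51). Wildtype values ran from 0.11 to 1.37 RPKM and knockout values from 1.12 to 6.49 RPKM. Log2 ratios of the single windows lay between 2.25 and 3.29, so each differed at least 4-fold. Both libraries climbed in the same order, lowest at the start and highest inside the gene, where a window with 5 CpGs held 12 wildtype and 64 knockout counts.

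Ldhc, the testis lactate dehydrogenase, had the sparsest capture at its start of the 5. It lies on chromosome 7 from 46861263 to 46878147 on the plus strand, just downstream of the noncoding gene Gm39011. Within 1 kb of the start, 8 windows held 28 wildtype and 165 knockout counts (log2 2.39, 1.22 to 3.79). In 4 adjacent windows over the start itself, from 46861101 to 46861500, the wildtype library had 1, 1, 1 and 4 counts and the knockout library 28, 26, 18 and 19. A further 3 windows upstream had 0 wildtype counts, which allows up to 3, and 10, 12 and 14 knockout counts. The highest knockout value near the start was 3.86 RPKM, the lowest such maximum of the 5 genes. The call rests on these shallow windows. It ended with 2 kb on each side of the start (log2 0.43) and without windows under 30 summed counts (0.69).

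Farther into Ldhc the direction changed from block to block. Of 28 windows beyond 1 kb of the start, 16 were lower and 12 higher in the knockout library, and their sum was 1150 wildtype and 1274 knockout counts (log2 -0.020, -0.25 to 0.21). Runs of 6 lower windows lay from 46871001 to 46871600 (210 and 96 counts) and from 46871801 to 46872400 (146 and 46 counts). Runs of higher windows followed from 46873001 to 46873400 (243 and 397 counts) and from 46876501 to 46876800 (232 and 337 counts). The higher blocks were well captured in both libraries, at 3.65 to 9.69 RPKM in the wildtype. Over the whole region the log2 ratio was 0.12 (-0.11 to 0.35), and Ldhc was not called.

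Pdha2 is the germ cell form of the E1 alpha subunit of pyruvate dehydrogenase, which passes pyruvate into the citric acid cycle. It lies on chromosome 3 from 141210004 to 141212355 on the minus strand. All 17 listed windows had the higher value in the knockout library, and their sums were 162 wildtype and 1151 knockout counts (log2 2.66, 2.18 to 3.17). Most of this lay inside the gene. A run of 13 windows with 57 CpGs, from 141210601 to 141211900, had 157 wildtype and 1092 knockout counts. At the start itself 3 windows had 4 wildtype and 49 knockout counts, and they held 5 CpGs. The highest knockout count, 106, stood beside 18 wildtype counts in a window with 8 CpGs, from 141211301 to 141211400. Window ratios along the run stayed close together, between 2.32 and 3.31.

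Cyct, the testis cytochrome c that carries electrons in the respiratory chain, had the largest start ratio. It lies on chromosome 2 from 76353942 to 76360453 on the minus strand. Within 1 kb of the start, 12 windows held 45 wildtype and 788 knockout counts (log2 3.96, 3.10 to 4.98), a 15.6-fold difference. Wildtype values ran from 0 to 0.80 RPKM and knockout values from 0.91 to 9.23 RPKM, so the libraries did not overlap. The unbroken part, 11 windows from 76359601 to 76360700, extended from upstream of the start into the gene. It held at most 7 wildtype counts in any window and 32 to 91 knockout counts. Farther into the gene the order was the reverse. The 7 windows beyond 1 kb of the start, with 1 or 2 CpGs each, had 321 wildtype and 147 knockout counts (log2 -1.29, -1.90 to -0.71). The largest loss was a window about 3 kb in, with 70 wildtype and 31 knockout counts.

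Slc25a31, also called Ant4, is the germ cell carrier that exchanges ADP for ATP across the inner mitochondrial membrane. It lies on chromosome 3 from 40708871 to 40726094 on the plus strand. Within 1 kb of the start, 15 windows had 150 wildtype and 872 knockout counts (log2 2.37, 1.87 to 2.91). A run of 13 windows with 67 CpGs, from 40708301 to 40709600, was centred on the start. Wildtype counts in it were between 5 and 15 and knockout counts between 22 and 85. The window with the highest count of the run, from 40708801 to 40708900, held 13 CpGs, 9 wildtype and 85 knockout counts. The ratio was not even along the run. The log2 value was 3.49 just upstream of the start and 1.60 inside the gene, where the run had its highest wildtype count.

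Farther into Slc25a31, 3 windows about 11 kb from the start were higher, with 151 wildtype and 343 knockout counts (log2 1.02, 0.45 to 1.61). The remaining 11 windows were lower. The steepest run of them, from 40721501 to 40721900, had 129 wildtype and 33 knockout counts, a 4.39-fold difference. All 14 windows beyond 1 kb of the start together had 502 and 464 counts (log2 -0.28, -0.66 to 0.094). The log2 ratio over the whole region was 0.87 (0.59 to 1.15), under 2-fold and not called.

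**Figure D2:**
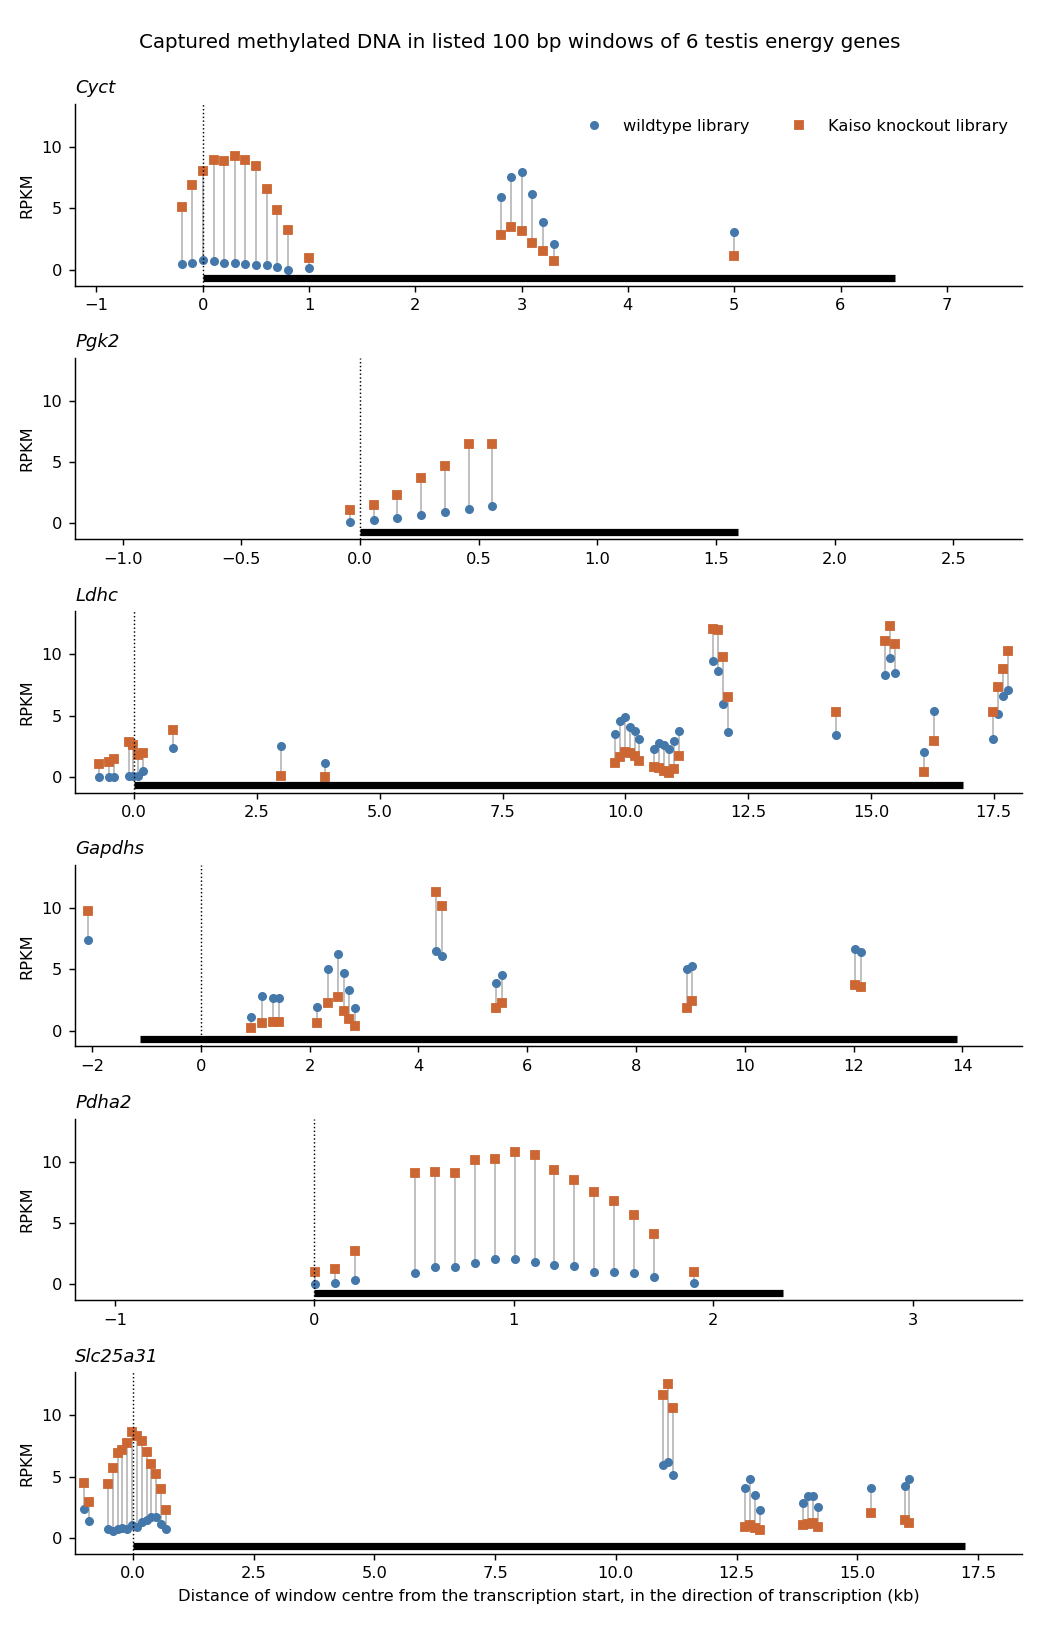
RPKM (y axis) of every listed 100 bp window in the 6 gene regions by distance of its centre from the transcription start in kb (x axis, own scale per gene), with circles for the wildtype library, squares for the knockout library, a grey line joining the pair and a black bar for the gene. Squares lie above circles over each start except that of Gapdhs, and below them in all 7 windows beyond 1 kb of the Cyct start, in 16 of 19 Gapdhs windows and at the far end of Slc25a31.

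Over the whole regions, 3 of the 6 genes (Pgk2, Pdha2 and Cyct) were called higher and 0 lower. Of 19225 gene regions of every length, 9.64% were called higher and 5.63% lower. The calls of the 3 genes are not separate from their start calls. All 7 listed windows of Pgk2, 9 of 17 of Pdha2 and 12 of 19 of Cyct lay within 1 kb of the start. The Cyct value, 1.19 (0.83 to 1.55), lay near the threshold, and was 0.52 when ratios were scaled so that the median window with 5 or more CpGs showed no change. Every listed window of Pgk2 and Pdha2 was higher. Cyct, Ldhc and Slc25a31 had a higher start, and beyond 1 kb of it 7 of 7, 16 of 28 and 11 of 14 windows were lower. The summed log2 ratios there were -1.29, -0.020 and -0.28, and only the interval of Cyct excluded no change. Of all 127 windows, 59 were at least 2-fold higher (46.5%, against 17.6% of all listed windows) and 47 at least 2-fold lower (37.0%, against 38.0%). The 47 became 15 when ratios were scaled within classes of CpG number. Of the 52 windows within 1 kb of a start, 49 were at least 2-fold higher and 1 at least 2-fold lower. That is 94.2%, against 64.3% of 39577 listed windows around all protein-coding starts. At least 4-fold higher were 41 of the 52 (78.8%, against 45.1% around all starts and 9.44% of all listed windows). Neighbouring windows share fragments, so the 52 are not independent. Of the 75 windows beyond 1 kb, 46 were at least 2-fold lower (61.3%), against 38.3% of listed windows beyond all starts.

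Among windows with 1 CpG the direction differed by position, and among those with 5 or more it did not. Windows beyond 1 kb held 1.81 CpGs on average and those near a start 3.44. Among windows with 1 CpG, 14 of 15 near a start were at least 2-fold higher, against 53.0% of such windows around all starts and 13.7% of all listed ones, and 11 of the 15 were at least 4-fold higher (34.9% around all starts, 6.72% of all listed). Among the 41 windows with 1 CpG beyond 1 kb, 30 were at least 2-fold lower, against 56.3% of all listed windows with 1 CpG. With 5 or more CpGs, all 15 windows near a start were at least 2-fold higher and 0 lower, against 80.9% and 1.48% of such windows around all starts, and 27.3% and 0.608% of all such listed windows. Of these, 14 were at least 4-fold higher (62.7% around all starts, 16.3% of all listed windows). The 4 windows with 5 or more CpGs that lay beyond 1 kb were higher too, 2 of them at least 2-fold, at 1.03 to 6.61 RPKM in the wildtype and 6.80 to 12.6 RPKM in the knockout.

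**Figure D3:**
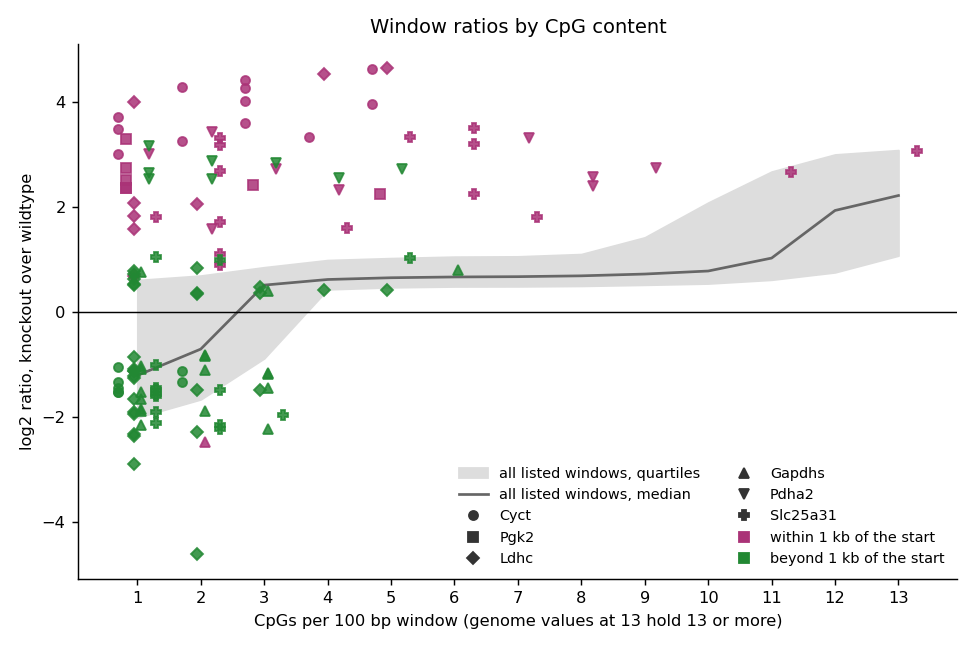
Log2 ratio of knockout over wildtype (y axis) against the CpGs in each window (x axis, points set side by side by gene), with symbols for genes, purple for windows within 1 kb of a start, green for those beyond, and a grey band and line for the quartiles and median of all listed windows. Windows with 0 counts in a library stand at a floor of 3 counts, and at 1 to 9 CpGs all purple points except the Gapdhs window lie above the band.

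Levels near the starts were low in the wildtype library. The median was 0.68 RPKM in the wildtype and 5.12 RPKM in the knockout library near a start, and 3.88 and 2.03 RPKM beyond it. Over all listed windows the medians were 4.45 and 4.06 RPKM. Listed windows around all protein-coding starts had medians of 1.03 and 3.15 RPKM, so a low wildtype level was common at starts. The authors' relative methylation score, which corrects for CpG density and has no stated scale, had medians of 0.0167 in wildtype and 0.129 in knockout windows near a start. Beyond 1 kb the medians were 0.277 and 0.153.

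Few listed windows lay at the starts of the relatives that serve other tissues, which does not show that those starts were unchanged. Of 8 (Cycs, Pgk1, Ldha, Ldhb, Gapdh, Pdha1, Slc25a4 and Slc25a5), 6 had no listed window within 1 kb of the start. Ldhb had 4 windows with 0 wildtype and 61 knockout counts, and Slc25a4 had 3 with 14 and 46, both under the minimum. Over whole regions, 7 of the 8 had the minimum. Against 9.64% higher and 5.63% lower of all gene regions, 0 of the 7 were called higher and 1 lower. The lower one was Pgk1, the X-linked parent of Pgk2, with 347 wildtype and 162 knockout counts (log2 -1.27, -1.84 to -0.71). Pdha1, the X-linked parent of Pdha2, had 461 and 601 counts (0.21, -0.15 to 0.58).

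Among 17 other energy genes listed as testis-biased, 12 had an annotated start and 11 of these the minimum. Of the 11, 10 were called higher and 1 lower, against the 51.9% and 13.7% of all start regions, with a median log2 ratio of 2.36. Gk2, a germ cell glycerol kinase, had 52 wildtype and 617 knockout counts (3.40, 2.58 to 4.34). Oxct2a, which lets sperm use ketone bodies, had 31 and 366 (3.39, 2.34 to 4.67), although reads may be shared with its near copy Oxct2b. The transketolase relative Tktl2 had 306 and 1217 (1.82). The lower gene was Atp1a4, the sodium pump subunit of sperm, with 148 and 54 (-1.62, -2.64 to -0.69).

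Glycolysis genes not confined to the testis were mixed at their starts. Of 11, 6 had no listed window within 1 kb of the start and 4 had the minimum there. Of the 4, 1 was called higher and 1 lower, against 51.9% and 13.7% of all start regions. Their median log2 ratio was 0.69, against 1.16 over all start regions. Aldoa, an aldolase gene, had 110 wildtype and 335 knockout counts (1.44, 0.80 to 2.12). Pfkm, the muscle phosphofructokinase gene, had 111 and 30 (-2.06, -3.45 to -0.86).

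Loci whose methylation differs between germ cells and somatic cells were also higher in the knockout library. All 13 listed germline genes with known somatic methylation were called higher at the start (51.9% of all start regions), with 3.79 to 22.6 wildtype and 36.3 to 74.4 knockout counts per window and a median log2 ratio of 2.98. Maternally imprinted genes are methylated on 1 parental copy in somatic cells and on none in sperm. Of 15 with an annotated start, 12 had the minimum and all 12 were called higher, against the same 51.9%, with a median of 3.23. The 14 with a listed window had 0 to 6.31 wildtype and 17.5 to 58.9 knockout counts per window. In whole testis DNA, a different share of somatic cells and a different methylation per cell cannot be told apart. The part of cell makeup in the values of the 6 genes was not tested.

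**Figure D4:**
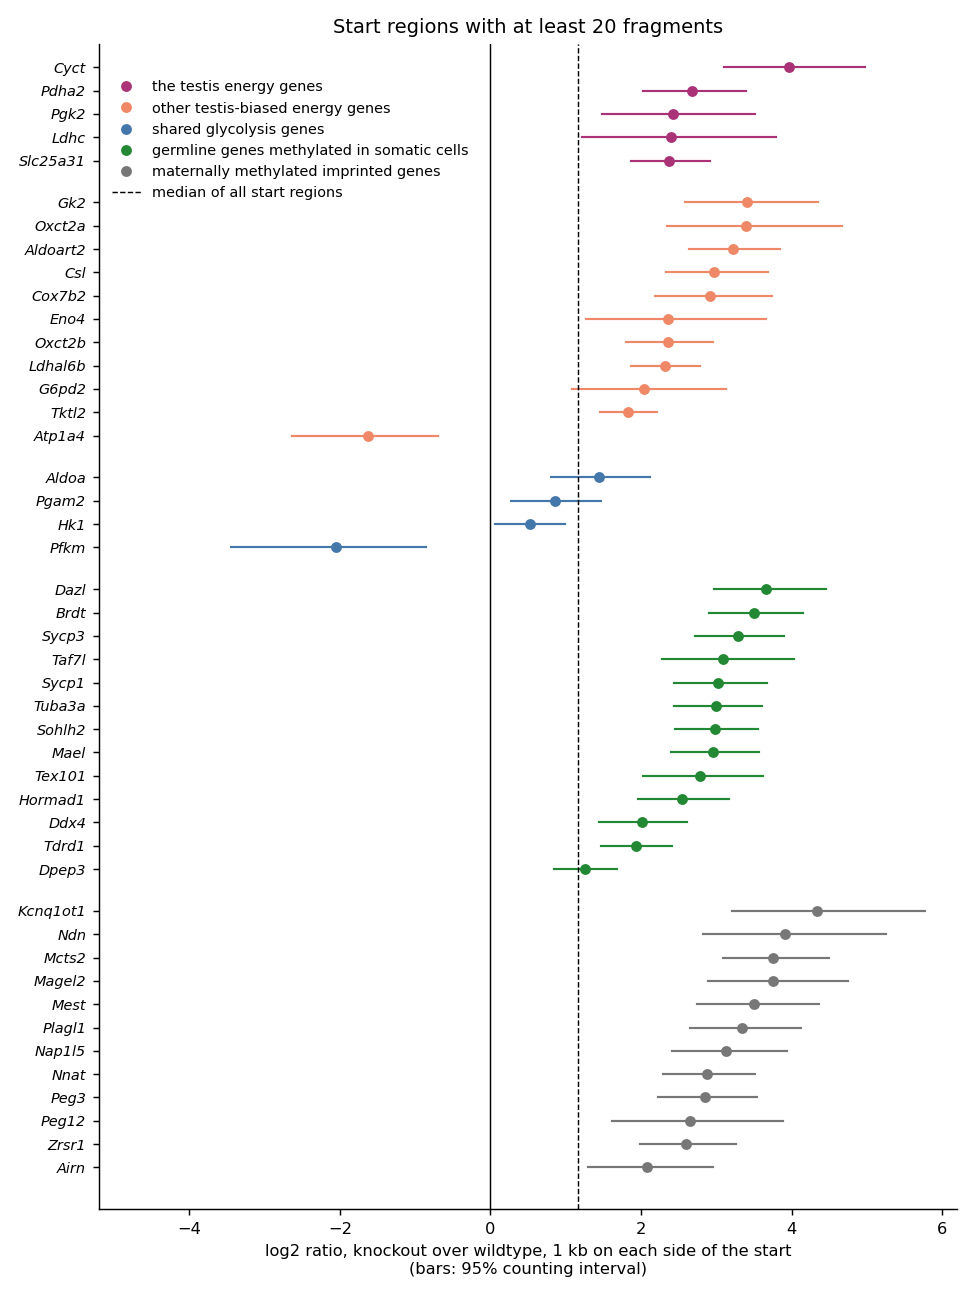
Log2 ratio of knockout over wildtype for start regions with at least 20 fragments (x axis, points, with bars for the 95% counting interval) by gene (y axis), coloured by gene list. The 5 testis energy genes lie between 2.37 and 3.96, to the right of the dashed median of all start regions at 1.16.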

How the data were processed

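Methylated DNA of testis was captured and sequenced in 1 wildtype and 1 Kaiso knockout library. Bowtie2 2.2.6, edgeR and mm10 are named in the submitters' processing notes. The column names are those of MEDIPS, per the file headers. The deposited counts are whole reads per 100 bp window. The RPKM was computed by the authors from count, window length and library reads, and count over RPKM gave the library sizes. The authors' relative methylation score, CpG number, log2 fold change (coded wildtype over knockout) and p-value were deposited too. The p-value was under 0.05 in all 2537435 windows, and its adjusted column held the same values in each. Another 10 columns of per-sample values were not used.

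Gene spans and starts came from RefSeq (GRCm38.p6, the assembly of mm10), without exons. The start is the most upstream one listed, and 17492 protein-coding genes had one. Sums, ratios and intervals were computed with Python 3.11.15 and scipy 1.17.1, and the TMM alternative with edgeR 4.0.16. A library under 1 fragment was set to a floor of 3, and no ratio was given where both were at or under it. Calls were also run on simulated data, and the outcome is not reported here. Other scalings, margins, folds and minimums were tried. The 6 genes are named in full, and from each other list up to 4 genes, by the largest and smallest start ratio with the minimum. The relatives of the 6 had no such start, and those given with values were chosen after these were seen. Members and lists were chosen with earlier results of these data known.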

Additional observations from a re-analysis of the deposited data

How the results depend on the processing

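No paired analysis was possible because each genotype had 1 library, and leaving out a library was not possible for the same reason. Other scalings moved all log2 ratios by -0.67 to 0.13, or by CpG class. All 5 start calls held under each scaling tried, while the share of all start regions called higher went from 39.3 to 54.6% under the uniform scalings. With 2 kb around the start 4 genes were called higher and 1 (Gapdhs) lower, and without windows under 30 summed counts 4 were higher. Both times Ldhc was lost, and the share of all start regions called at these settings is not given here. With the higher count minimum 14.75 fragments were left at the Ldhc start, under the 20 needed. With 2 kb on each side there were 83.5 fragments, against 48.25 with 1 kb, and the log2 ratio was 0.43 (-0.23 to 1.11). No listed window lay between those centred 788 and 2988 bp past the Ldhc start, so the added windows lay upstream. Scaled to a median of 0 over CpG-rich windows (5 or more CpGs), 1 whole region (Gapdhs, -1.21) was called lower. That scaling moved every log2 ratio by -0.67, and the share of all gene regions called lower under it is not given here. The 47 windows at least 2-fold lower became 15 under scaling within CpG classes, and 11 at 4-fold. Over whole regions Cyct was not called under 3 scalings (0.52 to 0.91) or at 3-fold, and Slc25a31 was called at 1.5-fold and within CpG classes (1.12). Of the recomputed counts 68 stayed within 1.5 times of the value given and 4 did not. Of the recomputed gene ratios 139 kept their call status, 3 gained a call and 6 lost it. The Ldhc start rests on 28 wildtype counts, which limits its precision. The other annotated starts of Ldhc and Gapdhs were tried after the data had been seen and changed no call.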
